A study of Mus musculus with 6 samples.

Results

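Genes of mitosis and chromosome segregation were examined in intestinal epithelial cells of mice given the gut bacterium Akkermansia muciniphila (Akk). The members were all rows of the deposited table whose gene name begins with 1 of 13 prefixes (such as Kif, Cenp, Ncap, Ccnb, Cep and Haus) or is 1 of 29 further mitosis genes. They numbered 64 of the 1386 genes and loci in the table, and all 64 were listed as lower in Akk. All mice were wild type (strain not given in the sources used here), on regular chow, and 8 weeks old when a daily gavage began that lasted 7 weeks. The Akk group (3 libraries) received 400000000 bacteria a day and the control group (3 libraries) received PBS, the carrier. Whether the 3 libraries of a group stem from 3 different mice is not stated, and the p-values reflect only library-to-library spread, which may be technical.

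Mitosis is driven by Cdk1 bound to A- and B-type cyclins. Condensin compacts the replicated chromosomes, kinetochores built on centromeric chromatin attach them to the spindle, and the spindle checkpoint holds back the anaphase-promoting complex until every chromosome is attached. In the small intestine these genes are active in the crypts, where stem cells and their transit-amplifying daughters divide, and silent in the villi, whose enterocytes no longer divide.

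The promoters of many mitotic genes are known to carry CCAAT boxes, which bind the factor NF-Y, and an element near the start site called the cell cycle genes homology region (CHR), often TTTGAA, through which the DREAM and MuvB complexes act. Promoter windows of 4 members with both motifs and of 1 member with neither are shown as examples. Whether the motifs go with the expression values was not tested. Each run is the 250 bases before the RefSeq start site (GRCm38.p6), 5′ to 3′ on the strand of the gene. Capitals mark matches on either strand to CCAAT, to the CHR form TTTGAA and to its variants, written TTTAAA and also TTCGAA. Top2a (topoisomerase II, which untangles sister chromatids) lies at chr11:99024190-99024439, minus strand, and Mki67 (the proliferation marker Ki-67, which coats mitotic chromosomes) at chr7:135716380-135716629, minus strand. Ccnb2 (cyclin B2) lies at chr9:70421555-70421804, minus strand, and Kif11 (the kinesin that pushes spindle poles apart) at chr19:37376132-37376381, plus strand. Cep128 (a protein of the mother centriole's appendages) lies at chr12:91384410-91384659, minus strand.
Top2a: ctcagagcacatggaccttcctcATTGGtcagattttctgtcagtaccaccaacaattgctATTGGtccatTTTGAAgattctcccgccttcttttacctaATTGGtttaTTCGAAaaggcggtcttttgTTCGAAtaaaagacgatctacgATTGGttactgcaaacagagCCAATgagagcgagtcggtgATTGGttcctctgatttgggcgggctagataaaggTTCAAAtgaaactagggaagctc
Mki67: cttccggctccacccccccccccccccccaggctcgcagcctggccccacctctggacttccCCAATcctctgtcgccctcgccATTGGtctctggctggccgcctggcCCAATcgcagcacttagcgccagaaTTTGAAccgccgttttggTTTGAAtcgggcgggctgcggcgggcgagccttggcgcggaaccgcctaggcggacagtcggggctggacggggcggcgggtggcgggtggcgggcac
Ccnb2: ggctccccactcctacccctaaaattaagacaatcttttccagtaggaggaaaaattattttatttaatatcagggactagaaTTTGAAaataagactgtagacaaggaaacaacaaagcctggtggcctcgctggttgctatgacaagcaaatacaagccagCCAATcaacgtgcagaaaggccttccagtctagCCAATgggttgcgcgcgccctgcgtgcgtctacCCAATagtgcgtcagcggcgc
Kif11: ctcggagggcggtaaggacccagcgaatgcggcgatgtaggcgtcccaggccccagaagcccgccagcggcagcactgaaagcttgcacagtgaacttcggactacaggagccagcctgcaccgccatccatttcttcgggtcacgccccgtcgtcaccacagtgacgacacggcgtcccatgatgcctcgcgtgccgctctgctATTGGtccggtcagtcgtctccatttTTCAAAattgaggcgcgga
Cep128: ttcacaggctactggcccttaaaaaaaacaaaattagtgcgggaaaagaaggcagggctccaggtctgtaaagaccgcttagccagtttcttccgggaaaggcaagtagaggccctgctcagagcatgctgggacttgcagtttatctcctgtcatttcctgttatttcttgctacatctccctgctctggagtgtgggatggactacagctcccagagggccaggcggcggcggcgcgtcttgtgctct

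The Top2a window held 6 CCAAT motifs, and TTTGAA matches began 179 and 23 bases before the start. In the Mki67 window TTTGAA matches began 116 and 98 bases before the start. The Ccnb2 window held 3 CCAAT motifs, beginning 87, 54 and 21 bases before the start, and a TTTGAA match farther away, at 167 bases. In the Kif11 window CCAAT began 45 and TTTGAA 19 bases before the start, and the Cep128 window held none of the motifs. The 250 bases before the start of Sgo1, Ndc80, Nuf2, Nusap1, Anln, Ncaph, Cep55, Cep70, Kif18a, Kif20b, Knstrn and Mad2l1 held none either. These runs leave out the 50 bases after the start, so a match there would not be seen in them. A window of 300 bases (250 before and 50 after the start) was found in the RefSeq table for 59 of the 64 members. CCAAT was present in 43 of the 59 (72.9%, exact 95% interval 59.7 to 83.6%), against 37.9% of all 27025 promoters in the table and 47.1% of the promoters of rows listed as lower. TTTGAA was present in 39 of the 59 (66.1%, 52.6 to 77.9%), against 18.1% of all promoters and 19.5% of the promoters of rows listed as lower. Both were present in 32 of the 59 (54.2%), against 7.12% of all promoters and 11.1% of the 802 promoters of rows listed as lower. TTTAAA (16.9% against 13.2% of all promoters) and TTCGAA (10.2% against 1.57%) were less frequent in these windows. TTTGAA matches were frequent close to the start, though not all lay there. The 80 bases from 30 before to 50 after the start were a window chosen after the matches were seen. In it, 35 of 59 members (59.3%) held TTTGAA against 3.79% of all promoters. For rows listed as lower that share was 8.60%. These matches describe letters in a window and are not measured binding.

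PBS replicate 2 had the highest FPKM (fragments per kilobase of gene per 1000000 fragments, by the authors) of the 6 libraries for 64 of 64 members, where it was highest for 74% of all rows and for 98.3% of the 1040 rows listed as lower, to which every member belongs. An Akk library was the lowest for all 64, a count that was not made over all rows. The summed FPKM of the 64 members was 122, 1120 and 109.7 in the PBS group, in replicate order, and 53.4, 68.1 and 72.7 in the Akk group. As a share of the implied depth (23457478 to 29245814 fragments per library) the members took 479, 4996 and 474 fragments per 1000000 (CPM) in PBS and 216, 272 and 314 in Akk. Per gene, the ratio of PBS replicate 2 to the mean of the other PBS libraries, called its excess here, ran from 1.94-fold (Haus7) to 19.2-fold (Top2a), with a median of 11.4-fold, and was over 10-fold for 42 members. The median of the same ratio was 4.14-fold over all rows and 5.77-fold over the rows listed as lower, and the difference between these sets was not tested. In bulk RNA of this kind, fewer dividing cells and less RNA per cell cannot be told apart.

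**Figure D1:**
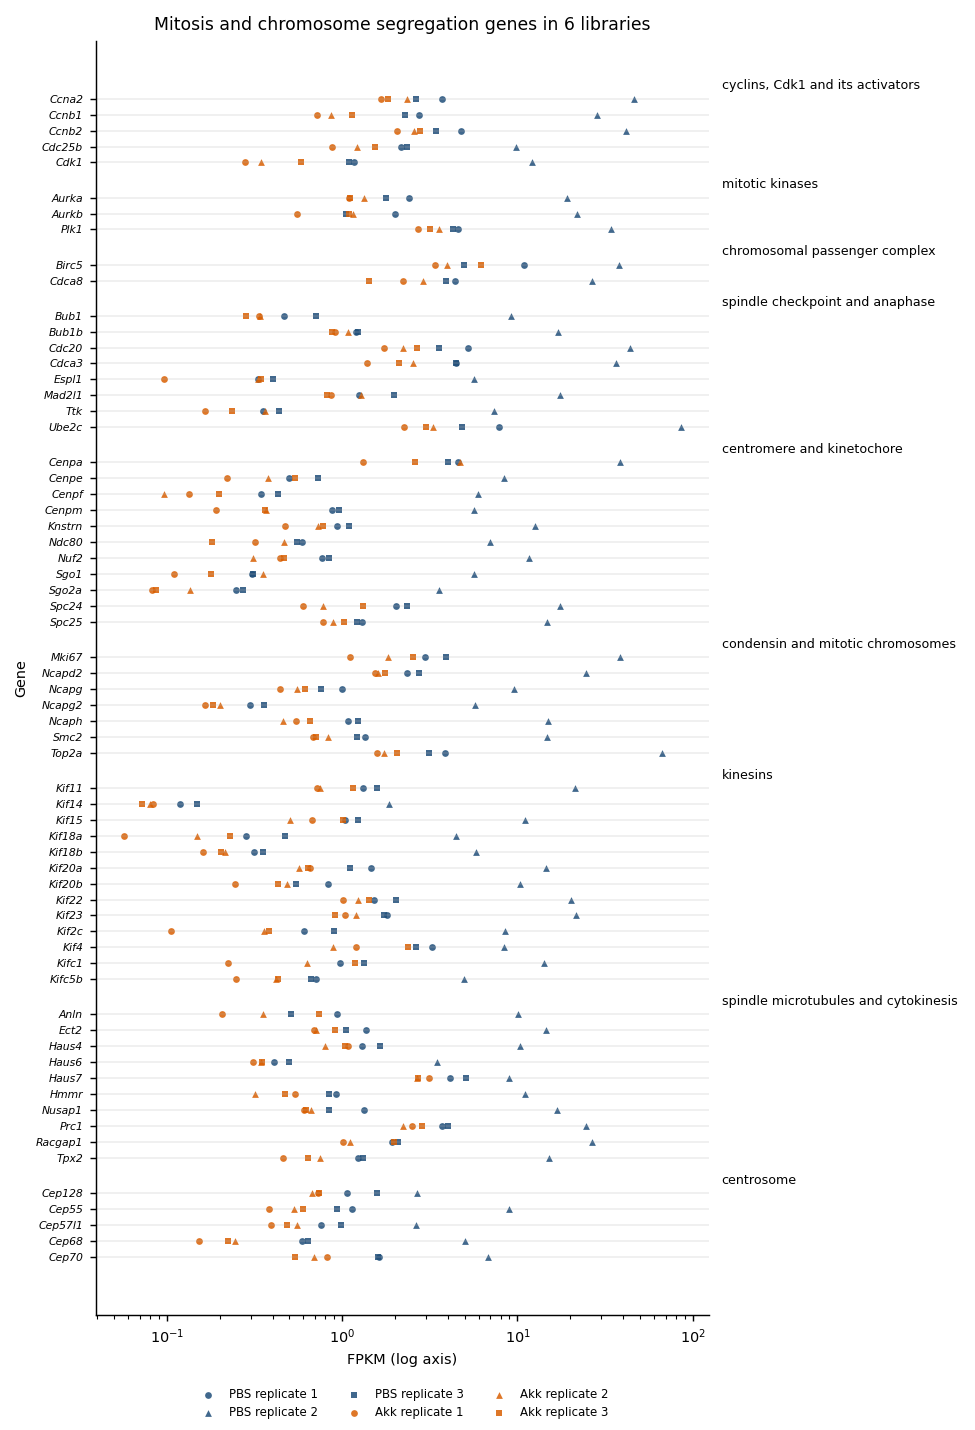
FPKM (log axis) of the 64 members in each of the 6 libraries, 1 row per gene, grouped by role; blue points are PBS and orange points Akk libraries. PBS replicate 2 (blue triangles) is the highest point in all 64 rows, and the other 2 PBS libraries lie above all 3 Akk libraries in 53 rows.

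Tested with edgeR's quasi-likelihood test over all 1386 rows, 0 of the 64 members passed a Benjamini-Hochberg adjusted p of 0.05 (lowest adjusted p 0.0861, highest 0.163 for Haus7), and 0% of all rows were called lower. An unadjusted p under 0.05 was reached by 60 of 64 members, where 54.3% of all rows, or 72.4% of the rows listed as lower, were lower at that p. DESeq2 called 19 members lower and gave no adjusted p for 44 (68.8%). Of all rows it called 51.4% lower and gave no adjusted p for 18.9%. Since more members than rows in general lacked an adjusted p, the shares called by DESeq2 cannot be compared. The limma-voom fit called 0 members. It gave an unadjusted p under 0.05 for 6 members, beside 241 of the 1386 rows in either direction. The fitted log2 fold change of Akk over PBS had a median of -2.97 over the members and -1.85 over all rows. Because the authors had selected every row on these same libraries (largest deposited p-value 0.0498, smallest deposited fold 1.5), the direction is not an independent result. Nor are the calls and adjusted p-values here and below, also where a library was left out.

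Without PBS replicate 2, the members' median log2 fold change was -0.81, beside -0.66 over all rows and -0.78 over the 1040 rows listed as lower. In that fit, 11 members passed (17.2%), where 17.7% of all rows, or 23.7% of the rows listed as lower, passed as lower, so the share of members was not above the background. The 11 that fell were Ccnb1, Top2a, Cep68, Cdk1, Kif20a, Cep70, Cenpf, Tpx2, Ncaph, Ube2c and Smc2. An unadjusted p under 0.05 was reached by 41 members (64.1%), against 48.6% of all rows and 64.8% of the rows listed as lower, which is about the members' share. In CPM, PBS replicates 1 and 3 lay above all 3 Akk libraries for 54 of 64 members (84.4%), against 66% of all rows and 88.0% of the rows listed as lower. The same background applies to the single genes below that did not overlap. The calls depended on which PBS library was left out: 60 members passed without PBS replicate 1 (52.2% of all rows), and 57 without PBS replicate 3 (50.9% of all rows). With column totals as library size 54 members passed, where 46.4% of all rows were lower, and with the replicate number as a block 0 passed, where 0.289% of all rows were lower.

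**Figure D2:**
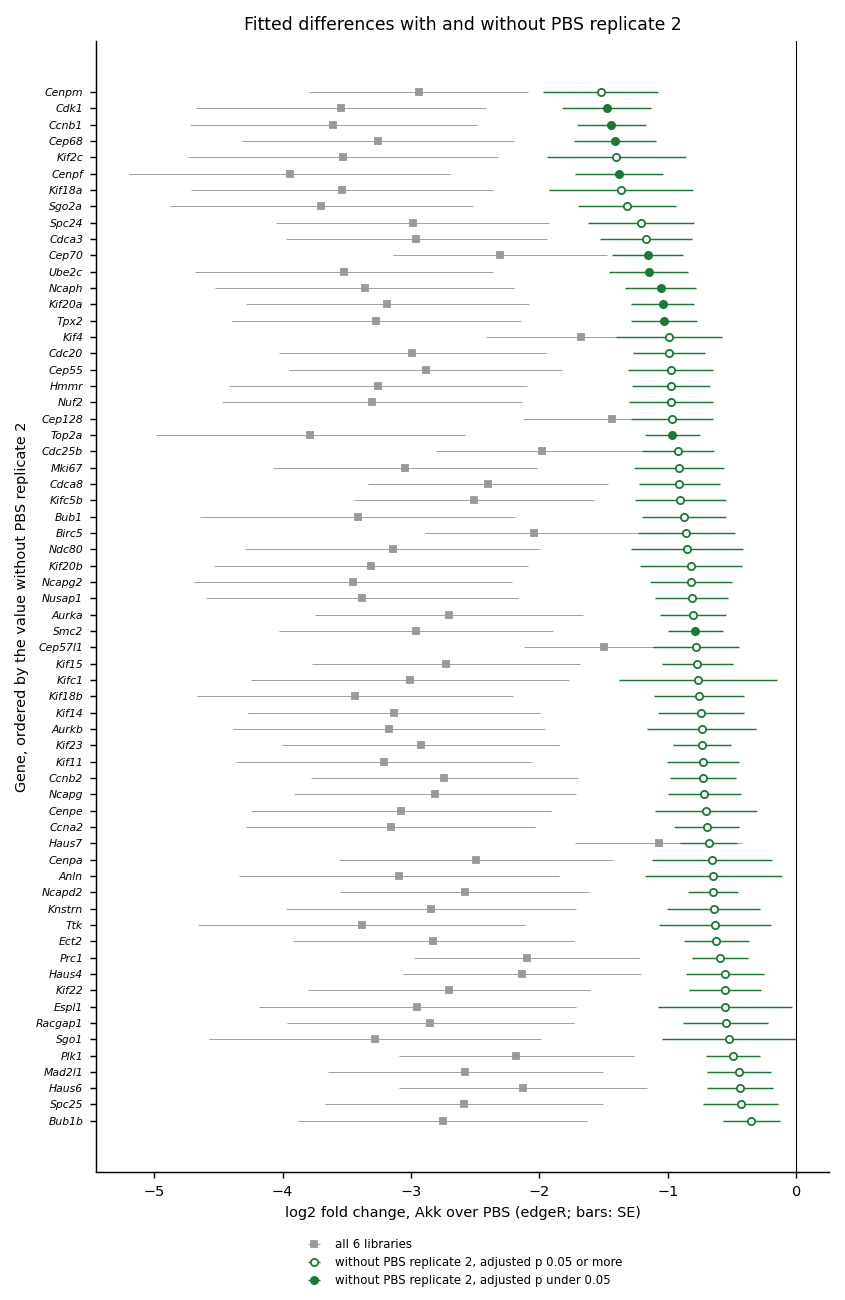
Fitted log2 fold change of Akk over PBS (edgeR, bars are SE) for the 64 members with all 6 libraries (grey squares) and without PBS replicate 2 (green circles, filled where the adjusted p was under 0.05). Values run from -3.95 (Cenpf) to -1.07 (Haus7) with all libraries and from -1.52 (Cenpm) to -0.35 (Bub1b) without PBS replicate 2.

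Among the genes that start mitosis, Cdk1, its cyclins Ccna2, Ccnb1 and Ccnb2 and the Cdk1-activating phosphatase Cdc25b were listed. Ccnb1, cyclin B1, had an FPKM of 2.74, 28.4 and 2.29 in PBS and 0.72, 0.862 and 1.14 in Akk, here and below in the order of replicates 1 to 3. All PBS libraries lay above all Akk libraries, and the distance between PBS replicates 1 and 3 was small beside that to PBS replicate 2. Its log2 fold change was -3.60 (SE 1.12, adjusted p = 0.0861) with all libraries and -1.44 (SE 0.27, edgeR adjusted p = 0.0352) without PBS replicate 2, the lowest adjusted p of any member. Cdk1 had 1.16, 12.1 and 1.09 FPKM in PBS and 0.279, 0.343 and 0.584 in Akk, again without overlap. It fell by 1.47 on the log2 scale (SE 0.35, edgeR adjusted p = 0.0423) without PBS replicate 2. Ccna2, which acts with Cdk1 and in S phase, had 3.69, 46.1 and 2.63 in PBS and 1.67, 2.34 and 1.83 in Akk. Ccnb2 had 4.74, 41.5 and 3.44 in PBS and 2.04, 2.56 and 2.80 in Akk. Neither passed without PBS replicate 2, with log2 fold changes of -0.70 (SE 0.25) and -0.73 (SE 0.26). Cdc25b had a smaller excess in PBS replicate 2 (4.36-fold) and a log2 fold change of -0.92 (SE 0.28, edgeR adjusted p = 0.056) without it. Its relative Cdc25c, named in the rule, was not among the rows of the table. Of the FPKM of Cdk1 and the 3 cyclins, Ccnb2 took 32.4% in PBS replicate 2 and 36.4 to 44.1% in the other 5 libraries.

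The mitotic kinases Plk1, Aurka and Aurkb were listed, and none of them passed with or without PBS replicate 2. Plk1, which acts at centrosomes, kinetochores and the cleavage furrow, had 4.57, 34.0 and 4.27 FPKM in PBS and 2.70, 3.55 and 3.18 in Akk. Its log2 fold change without PBS replicate 2 was -0.49 (SE 0.21). Aurka, the kinase of the spindle poles, had 2.39, 19.1 and 1.78 in PBS and 1.09, 1.34 and 1.11 in Akk, without overlap. Aurkb, the kinase of the chromosomal passenger complex, overlapped between groups: PBS replicate 3 had 1.05 FPKM, below Akk replicates 2 and 3 at 1.16 and 1.09. Of the other passenger subunits, Birc5 (survivin) had 10.9, 38.0 and 4.94 in PBS and 3.40, 3.95 and 6.19 in Akk, and was the most abundant member in the Akk libraries by mean FPKM (4.51 ± 1.48, SD, n = 3). Akk replicate 3 exceeded PBS replicate 3 for Birc5, so the groups overlapped. Cdca8 (borealin) had 4.37, 26.6 and 3.89 in PBS and 2.22, 2.90 and 1.43 in Akk, without overlap.

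Genes of the spindle checkpoint and of anaphase had a median excess of 13.8-fold in PBS replicate 2. Ube2c, a ubiquitin-conjugating enzyme of the anaphase-promoting complex, had 7.89, 86.2 and 4.79 FPKM in PBS, against 2.24, 3.31 and 2.997 in Akk, and was the most abundant member in PBS replicate 2 but lay below Birc5 in PBS replicates 1 and 3. It fell by 1.15 on the log2 scale without PBS replicate 2 (SE 0.31, edgeR adjusted p = 0.0462). Cdc20, the activator of that complex, had 5.19, 44.0 and 3.57 in PBS and 1.73, 2.23 and 2.66 in Akk. Its log2 fold change of -0.99 (SE 0.28) missed the threshold narrowly without PBS replicate 2 (edgeR adjusted p = 0.0508). Cdca3, which helps trigger entry into mitosis, had 4.44, 36.3 and 4.48 in PBS and 1.38, 2.52 and 2.11 in Akk, without overlap, and a log2 fold change of -1.17 (SE 0.36, edgeR adjusted p = 0.0569) without PBS replicate 2. The checkpoint kinase Bub1 had 0.468, 9.17 and 0.712 in PBS and 0.336, 0.338 and 0.283 in Akk, without overlap. The checkpoint protein Bub1b had the smallest difference of any member without PBS replicate 2, with 1.198 and 1.23 FPKM in PBS replicates 1 and 3 against 0.906, 1.08 and 0.875 in Akk, a log2 fold change of -0.35 (SE 0.22). Mad2l1, the checkpoint's inhibitor of Cdc20, did not overlap in CPM but did in FPKM, where Akk replicate 2 (1.28) lay above PBS replicate 1 (1.25). Ttk, the kinase that starts checkpoint signalling, and Espl1, the protease separase that cuts cohesin, overlapped between the groups. Both had an excess above 15-fold in PBS replicate 2, 18.6-fold for Ttk and 15.4-fold for Espl1. Pttg1 (securin), the inhibitor of separase, was not among the rows.

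Of centromere and kinetochore genes, 11 were listed, and their fitted log2 fold changes had a median of -3.08 (-0.85 when PBS replicate 2 was left out). Cenpf, a kinetochore and nuclear matrix protein of late cell cycle, had 0.342, 5.94 and 0.428 FPKM in PBS and 0.134, 0.0963 and 0.198 in Akk. It had the largest fitted difference of the members with all libraries (-3.95, SE 1.25) and fell by 1.38 without PBS replicate 2 (SE 0.34, edgeR adjusted p = 0.0435). Cenpm, a subunit of the constitutive centromere network, had 0.879, 5.65 and 0.952 in PBS and 0.19, 0.37 and 0.362 in Akk. Its log2 fold change of -1.52 (SE 0.45) without PBS replicate 2 was the largest of the members but rested on 9 to 43 counts in those 5 libraries and did not pass (edgeR adjusted p = 0.0531). Cenpa, the histone H3 variant that marks centromeres, had 4.57, 38.3 and 4.02 in PBS and 1.31, 4.70 and 2.60 in Akk, and Akk replicate 2 lay above PBS replicates 1 and 3. Cenpe (the kinetochore motor) and Sgo1 (a shugoshin, which protects centromeric cohesin) overlapped as well. The other shugoshin, Sgo2a, did not overlap, with 0.247, 3.57 and 0.272 in PBS and 0.0824, 0.135 and 0.0867 in Akk.

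The 4 subunits of the Ndc80 complex, which grips microtubule ends, were all listed. Ndc80 had 0.588, 6.97 and 0.552 FPKM in PBS and 0.317, 0.465 and 0.182 in Akk, and Nuf2 had 0.771, 11.6 and 0.835 against 0.441, 0.311 and 0.464. Spc24 had 2.03, 17.4 and 2.34 in PBS and 0.597, 0.781 and 1.32 in Akk, and Spc25 had 1.29, 14.7 and 1.21 against 0.776, 0.889 and 1.03. None of the 4 overlapped between the groups, as was the case in CPM for 65.9% of all rows and 87.8% of the rows listed as lower. None passed without PBS replicate 2 (log2 fold changes from -1.21 for Spc24 to -0.43 for Spc25). By FPKM, Spc24 took 43.3, 34.3 and 47.5% of the 4 subunits in PBS and 28.0, 31.9 and 44.1% in Akk. Spc25 took the largest share in Akk replicates 1 and 2.

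Chromosome structure genes did not overlap between groups for any of the 7 listed, in CPM or in FPKM. In CPM, every PBS library lay above every Akk library for 65.9% of all rows and 87.8% of the rows listed as lower. Top2a had 3.84, 67.0 and 3.14 FPKM in PBS and 1.59, 1.72 and 2.05 in Akk. It had the largest excess in PBS replicate 2, and without that library it fell by 0.97 on the log2 scale (SE 0.22, edgeR adjusted p = 0.0411). Mki67 had 2.97, 38.4 and 3.92 in PBS and 1.11, 1.84 and 2.53 in Akk, a log2 fold change of -0.92 (SE 0.35, edgeR adjusted p = 0.0765) without PBS replicate 2. The condensin subunits Smc2 and Ncaph fell by 0.79 (SE 0.21, edgeR adjusted p = 0.0471) and 1.05 (SE 0.28, edgeR adjusted p = 0.045) without PBS replicate 2. Smc2 had 1.35, 14.8 and 1.21 FPKM in PBS and 0.677, 0.829 and 0.706 in Akk. Ncaph had 1.08, 14.9 and 1.22 in PBS and 0.543, 0.462 and 0.651 in Akk. Ncapd2, the most abundant of the 5 listed condensin subunits by FPKM, took 38.6, 35.2 and 43.8% of their sum in PBS and 45.6, 44.0 and 44.9% in Akk. Ncapg2, of condensin II, took 8.2% in PBS replicate 2 and 4.7 to 5.7% in the other libraries. Smc4, the partner of Smc2, was not among the rows, and 4 of the 6 annotated Ncap genes were.

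Of 44 protein-coding genes whose names begin with Kif, 13 were listed, most of them known for roles in mitosis or cytokinesis, while the transport kinesins Kif1a, Kif3a and Kif5b were not listed. Kif20a, a kinesin of the central spindle, had 1.45, 14.5 and 1.11 FPKM in PBS and 0.656, 0.564 and 0.638 in Akk. It was the only kinesin that passed without PBS replicate 2 (log2 fold change -1.04, SE 0.25, edgeR adjusted p = 0.0423). Kif11 had 1.31, 21.3 and 1.57 in PBS and 0.721, 0.742 and 1.15 in Akk, and Kif23, of the centralspindlin complex, had 1.80, 21.6 and 1.73 against 1.04, 1.199 and 0.908. Neither overlapped. Kif15, which backs up Kif11 in the spindle, had 1.04, 11 and 1.23 in PBS and 0.675, 0.503 and 1.01 in Akk, and a log2 fold change of -0.77 (SE 0.28, edgeR adjusted p = 0.0705) without PBS replicate 2. Kif2c, which depolymerises microtubules at centromeres, and Kif18a, which damps chromosome movement, had larger differences without PBS replicate 2 (-1.40, SE 0.54, and -1.36, SE 0.56). Their Akk libraries spread 3.63-fold and 4.03-fold, with Akk replicate 1 the lowest, and neither passed. These values rested on few counts in Akk, 13, 41 and 41 for Kif2c and 9, 20 and 29 for Kif18a. Kif4, the chromokinesin, had a small excess in PBS replicate 2, with 3.26, 8.39 and 2.64 in PBS and 1.197, 0.889 and 2.37 in Akk. Kifc1, a minus-end motor that focuses poles, overlapped between groups and had the widest spread among Akk libraries (0.222, 0.629 and 1.18 FPKM). Kifc1 and Kifc5b are close paralogs, so their single values are uncertain.

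Genes of spindle microtubules and cytokinesis numbered 10, with a median log2 fold change of -0.63 without PBS replicate 2. Tpx2, which activates Aurka on the spindle, had 1.23, 15.1 and 1.31 FPKM in PBS and 0.458, 0.742 and 0.635 in Akk. It was the only one of the 10 to pass without PBS replicate 2 (log2 fold change -1.03, SE 0.26, edgeR adjusted p = 0.0435). Hmmr, a spindle assembly factor, had 0.917, 11.1 and 0.836 in PBS and 0.541, 0.316 and 0.469 in Akk, and a log2 fold change of -0.98 (SE 0.30, edgeR adjusted p = 0.0581) without PBS replicate 2. Nusap1, a spindle-bundling protein, had 1.34, 16.8 and 0.841 in PBS and a narrow 0.605, 0.665 and 0.618 in Akk. Prc1, which bundles the central spindle, had 3.71, 24.7 and 4.03 in PBS and 2.51, 2.23 and 2.87 in Akk, and Ect2, which activates RhoA at the furrow, had 1.37, 14.5 and 1.06 against 0.692, 0.713 and 0.909. Neither overlapped. Anln (anillin), the furrow scaffold, and Racgap1, the partner of Kif23, did overlap. Anln had 0.513 FPKM in PBS replicate 3 and 0.732 in Akk replicate 3. The augmin subunits Haus4, Haus6 and Haus7, of 8 annotated, did not overlap, and without PBS replicate 2 their log2 fold changes were -0.56 for Haus4, -0.44 for Haus6 and -0.68 for Haus7.

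The centrosome genes stood at the low end of the excess in PBS replicate 2 but not of the difference in the other libraries. The 5 listed, of 37 protein-coding genes whose names begin with Cep, had a median excess of 4.20-fold and a median log2 fold change of -0.98 without PBS replicate 2. Cep68, of the linker that joins centrosomes, had 0.591, 5.04 and 0.635 FPKM in PBS and 0.152, 0.244 and 0.224 in Akk. Cep70, a centrosomal protein, had 1.62, 6.75 and 1.59 in PBS and 0.819, 0.692 and 0.539 in Akk. Both fell without PBS replicate 2, by 1.41 (SE 0.32, edgeR adjusted p = 0.0411) and 1.16 (SE 0.28, edgeR adjusted p = 0.0433). Cep128 had 1.06, 2.67 and 1.57 in PBS and 0.73, 0.676 and 0.734 in Akk, in FPKM the narrowest Akk spread of all members. Its Akk counts, on which the fits rest, were 98, 128 and 131, so counts and FPKM differed for this gene. Cep55, which acts in the final cut between daughter cells, had 1.13, 8.97 and 0.939 in PBS and 0.383, 0.53 and 0.595 in Akk. Haus7 and Cep128 had the smallest excess of the 64, followed by Kif4 and Cep57l1 (2.84-fold and 3.005-fold). At the other end, Top2a was followed by Ttk and Sgo1. No test of the difference between role groups was made.

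**Figure D3:**
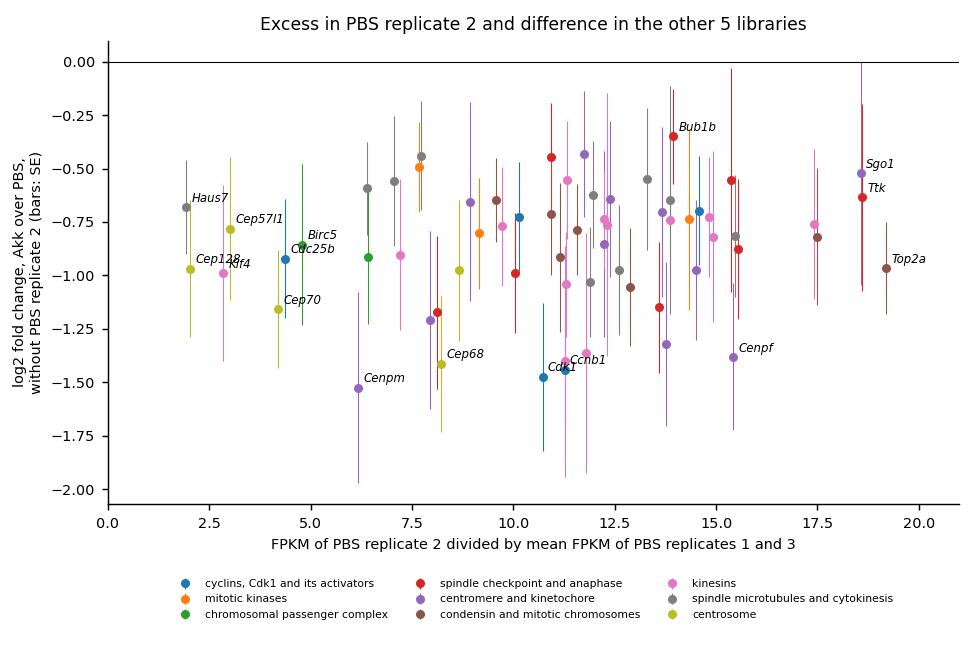
For each of the 64 members, the FPKM of PBS replicate 2 over the mean of PBS replicates 1 and 3 (horizontal axis) against the log2 fold change of Akk over PBS fitted without PBS replicate 2 (vertical axis, bars are SE), coloured by role. All 64 values on the vertical axis are below 0, and the excess runs from 1.94 (Haus7) to 19.2 (Top2a).

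The Akk libraries differed among themselves. Akk replicate 1 was the lowest of all libraries for 45 members, Akk replicate 2 for 11 and Akk replicate 3 for 8. This was not counted over all rows. The median FPKM relative to the mean of PBS replicates 1 and 3 was also lowest in Akk replicate 1 beyond the members. Over the rows listed as lower it was 0.530, 0.585 and 0.599 in Akk, and over all rows 0.605, 0.651 and 0.661. The ratio of the highest to the lowest Akk library had a median of 1.57 and reached 5.29 for Kifc1. In PBS, replicate 1 exceeded replicate 3 for 28 of the 64 members.

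Of 75 further mitosis and cell cycle genes in a fixed list, 35 were listed, all as lower. The median of their fitted log2 fold changes was -2.94 (-0.86 when PBS replicate 2 was left out), and PBS replicate 2 was the highest library for all 35. By edgeR 0 of the 35 passed with all libraries (32 at an unadjusted p under 0.05, where 54.3% of all rows and 72.4% of the rows listed as lower were lower at that p). Without PBS replicate 2, 8 passed (22.9%), beside 17.7% of all rows and 23.7% of the rows listed as lower. Among these 35 was Foxm1, the transcription factor of late cell cycle genes, with 0.825, 9.04 and 0.895 FPKM in PBS and 0.224, 0.45 and 0.526 in Akk. Incenp, the scaffold of the passenger complex, had 2.14, 22.7 and 2.60 in PBS and 0.899, 1.43 and 1.63 in Akk. Stmn1, a tubulin-binding protein, had 10.5, 128.3 and 8.54 in PBS and 3.37, 3.78 and 4.86 in Akk, and was 1 of the 8 (log2 fold change -1.26 without PBS replicate 2). The D-type cyclins Ccnd1 and Ccnd2 and their kinases Cdk4 and Cdk6 were also listed. The cohesin subunits Smc1a, Smc3 and Rad21, the cyclin E genes and the Cdk inhibitors Cdkn1a and Cdkn1b were not listed, and whether such a gene was unmeasured or outside the authors' selection cannot be told apart.

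Marker lists of other crypt and villus cells were compared with the members. Of 40 DNA replication genes 23 were listed, all lower, with a median excess of 11.01-fold in PBS replicate 2 and a median log2 fold change of -0.74 without it, beside 11.4-fold and -0.81 for the members. Without PBS replicate 2, 2 of the 23 passed (12 at an unadjusted p under 0.05). Of 10 crypt base stem cell markers 5 were listed, all lower, with a median excess of 20.3-fold. Their summed FPKM was 13.8, 627 and 14.7 in PBS and 7.37 to 10.8 in Akk, and Olfm4 alone had 498 in PBS replicate 2. Without that library their median log2 fold change was -0.85, and 2 of the 5 passed (3 at an unadjusted p under 0.05). Of 9 Paneth cell markers 8 were listed, 7 of them lower, with a median excess of 32.1-fold in PBS replicate 2. Their median log2 fold change without that library was -0.32, and 0 of the 8 then passed or had an unadjusted p under 0.05. In that fit 19.5% of all rows passed and 56.6% had such a p, in either direction. The summed FPKM of the Paneth markers was 1116, 8352 and 1472 in PBS and 1587, 1543 and 1574 in Akk, so that PBS replicates 1 and 3 lay below the Akk libraries, and Reg3g, the marker listed as higher, made up most of the sum in the libraries other than PBS replicate 2. Of 12 enterocyte markers 3 were listed (Apoa4, Apob and Apoc3), all higher in Akk, with a summed FPKM of 657 in PBS replicate 2, 2343 and 3862 in the other PBS libraries and 4538 to 6180 in Akk. No listed marker was at 0 in any library. Of 6 general epithelial markers Krt19 was listed, at 137 to 880 FPKM, and of 6 goblet cell markers Zg16 was listed, as higher. No marker of T cells, B cells, myeloid or stromal cells was listed, so the labelled tissue could be checked only in part. The part of these cell types in the members' difference was not tested, and no difference between the lists was tested.

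**Figure D4:**
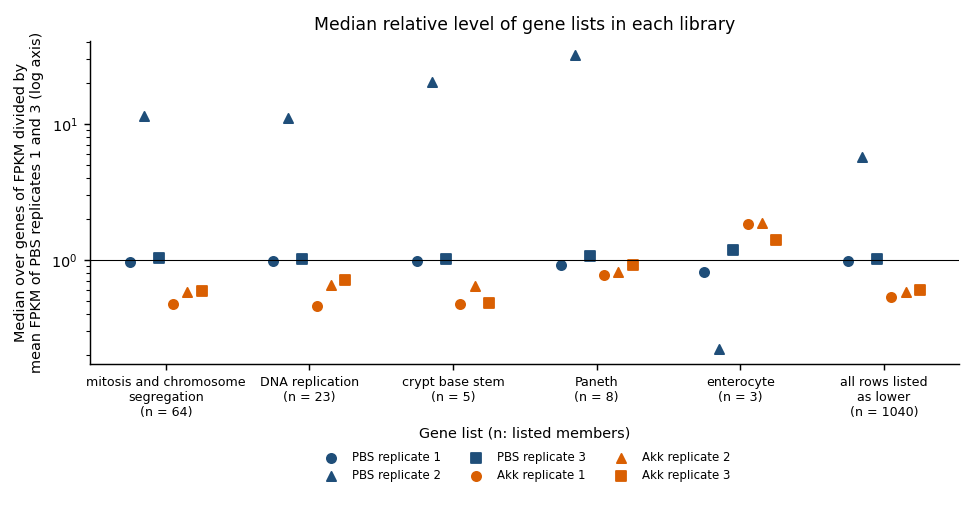
Median over the listed genes of each list of FPKM divided by the mean FPKM of PBS replicates 1 and 3 (log axis), 1 point per library. For the 64 members the points are 0.97, 11.4 and 1.03 for the PBS libraries and 0.48, 0.58 and 0.59 for the Akk libraries, in replicate order.

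In the authors' deposited table the members' p-value ran from 0.000476 (Ccnb1) to 0.0453 (Cep57l1), and their log2 fold change from -1.77 (Ccnb1) to -0.59 (Haus7), close to the smallest fold the table holds. These are smaller than the values fitted here with all libraries, and how the authors scaled them is not given in the sources used here. For 7 members (Ccna2, Kif20a, Kif4, Ncapg, Prc1, Sgo2a and Ube2c) more than 10% of the exon bases overlap exons of a gene on the opposite strand, and the strand setting of the counting is not given, so reads of the partner gene could be included. Cep57l1 and Haus7 were lower with the main scaling, but RLE factors computed from the listed genes themselves turned their log2 fold changes to 0.24 for Haus7 and 0.0097 for Cep57l1.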

How the data were processed

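RNA of intestinal epithelial cells was extracted with Trizol and made into Illumina mRNA libraries, per the labels' protocols. Build mm10 comes from the submitters' processing notes. No source used here names the aligner, counter, strand setting or test. Per the file headers, each library has raw counts and FPKM, as deposited by the authors. Per row the authors added their own p-value and log2 fold change. It holds only rows past thresholds on these libraries, so column totals are not depth. Each library's depth was instead inferred by dividing counts by FPKM over 560 genes with at least 200 counts in every library, scaled by GENCODE M21 exon lengths of 548. Lines without an identifier (2) were left out, and 1 name turned into a date was restored.

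The main test of Akk against PBS was the quasi-likelihood test of edgeR 4.0.16 in R 4.3.3 on rows kept by filterByExpr (all rows), with recovered depth as library size, no replicate term and Benjamini-Hochberg adjustment over all 1386 rows at 0.05. SE was the log2 fold change divided by the square root of F. The fit was also run on simulated counts with a smaller spread between libraries than these data, no outlying library and no selection of rows. That run therefore cannot show how the fit performs on these data. limma 3.58.1 (voom), DESeq2 1.42.0, other scalings, filters, a replicate block and leaving out each library were alternatives. Members' exons were placed with GENCODE M21 (GRCm38, the assembly that mm10 names). Where RefSeq gave several promoters, the first in the table was used (5 members had a further one). Intervals are exact Clopper-Pearson and cover counting error only.

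Members and lists were chosen with earlier results of these data known. The naming rule took fixed landmark genes, per role group up to 3 members with the smallest p without PBS replicate 2 and the most abundant, and the extremes of the excess in PBS replicate 2; other members were named after their values were seen.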

Additional observations from a re-analysis of the deposited data

How the results depend on the processing

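With all 6 libraries edgeR called 0 of 1386 rows (791 at an unadjusted p under 0.05) and 0 of 64 members. The count over all rows became 656 with column totals as library size, 786 with DESeq2, 2 with limma-voom and 6 with the replicate block, and 0 to 734 when each library was left out in turn. The count of members became 54 with column totals (46.4% of all rows were then lower) and 19 with DESeq2, which gave no adjusted p for 44. It was 0 with limma-voom and with the replicate block, and ran from 0 to 60 when each library was left out. It was 0 with any Akk library left out, and 60, 11 and 57 with PBS replicates 1, 2 and 3 left out. TMM and RLE factors called 0 rows, and the filters on low counts removed no row. The cause was not tested.

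The members' median log2 fold change of -2.97 became -0.95 with TMM and -0.85 with RLE factors, and ran from -3.44 to -0.81 when each library was left out. Those factors moved the median of all rows from -1.85 to -0.21 and -0.15. Relative to that median the members stood at -1.12 with all libraries, -0.74 with TMM, -0.70 with RLE and -0.15 without PBS replicate 2. Haus7 turned to 0.20 with TMM and 0.24 with RLE factors, and Cep57l1 to 0.0097 with RLE. All other members kept a negative value under every alternative run.

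The r of deviations across rows between same-numbered libraries was 0.24, -0.08 and -0.30. PBS replicates 1 and 3 deviated alike (r 0.24 and 0.30 with Akk replicate 1, -0.22 and -0.30 with Akk replicate 3), opposite to PBS replicate 2. These values therefore cannot show or exclude pairs. The library titles name no pairs, and the numbers are not taken as pairs. With the replicate block the members' median was -1.94.

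In the 150 bases before the start the share of member promoters with TTTGAA became 25.4% (9.24% of all promoters), with TTTAAA 6.78% (6.79%), with TTCGAA 3.39% (0.67%), with any of these 33.9% (15.5%), and with both CCAAT and TTTGAA 18.6% (2.32%). From 30 before to 50 after the start, chosen after seeing the data, CCAAT was in 32.2% (10.1%) and both in 27.1% (0.492%).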
